A study of Mus musculus with 48 samples.

Results

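Wolframin, the product of Wfs1, and the genes of calcium handling around the endoplasmic reticulum (ER) were examined in the liver of Wfs1 mutant mice. The members were 10 named genes, Wfs1, Cisd2, Itpr1, Itpr2, Itpr3, Atp2a2, Stim1, Orai1, Atp1b1 and Syvn1. Each was represented by the probeset whose only annotated gene symbol was its own, which gave 9 measured genes among 35556 probesets and 19938 genes with a probeset of their own. No probeset was assigned to Itpr1 alone, and it is not reported here. RNA from the livers of 48 male mice was hybridised to Affymetrix Mouse Gene 1.0 ST arrays. There were 6 groups of 8 mice, and each mouse had its own array. The groups were wild type (WT, Wfs1 +/+), heterozygous (HZ, Wfs1 +/-) and homozygous mutant (KO, Wfs1 -/-) mice, each treated with saline (10 mL/kg) or with valproic acid (VPA, 300 mg/kg). Injections were intraperitoneal and daily for 12 weeks from an age of 4 to 6 weeks, and mice were killed at 16 to 18 weeks. All mice, controls included, received a glucose load of 2 g/kg 24 hours after the last injection and were killed 24 hours later. The mutation removed only some of the exons of Wfs1, and every cell of the body carried it.

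Wolframin is a membrane protein of the ER, and its loss causes Wolfram syndrome, with juvenile diabetes, optic atrophy and deafness. CISD2, an iron-sulfur protein of the ER and outer mitochondrial membrane, is mutated in a second form of the syndrome. Calcium enters the ER through the SERCA pump, encoded by Atp2a2, and leaves it through inositol trisphosphate receptors, encoded by the Itpr genes. When the store empties, the ER sensor STIM1 opens the plasma membrane channel ORAI1. Wolframin has been linked to the beta 1 subunit of the sodium pump, Atp1b1, and to the ubiquitin ligase HRD1, Syvn1, which removes misfolded proteins from the ER. VPA is an anticonvulsant and histone deacetylase inhibitor that has been reported to raise Wfs1 expression in cultured cells, and the comparisons ask whether the transcripts around wolframin differ by genotype or with long VPA treatment.

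The promoters of Wfs1 and Syvn1 are shown because these transcripts varied together across mice, and because Syvn1 is a known target of the unfolded protein response. The sequences are from RefSeq on GRCm38.p6 and hold the 250 bases before the annotated gene start, 5′ to 3′ on the gene's strand. Wfs1 is at chr5:36988983-36989232 on the minus strand and Syvn1 at chr19:6046326-6046575 on the plus strand. Capitals mark CCAAT, its reverse complement ATTGG, and CCACG or its reverse complement CGTGG.
Wfs1: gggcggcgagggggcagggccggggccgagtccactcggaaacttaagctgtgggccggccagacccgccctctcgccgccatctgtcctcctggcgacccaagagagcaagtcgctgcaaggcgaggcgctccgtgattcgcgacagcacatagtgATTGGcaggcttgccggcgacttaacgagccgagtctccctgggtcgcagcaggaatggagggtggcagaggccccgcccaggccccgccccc
Syvn1: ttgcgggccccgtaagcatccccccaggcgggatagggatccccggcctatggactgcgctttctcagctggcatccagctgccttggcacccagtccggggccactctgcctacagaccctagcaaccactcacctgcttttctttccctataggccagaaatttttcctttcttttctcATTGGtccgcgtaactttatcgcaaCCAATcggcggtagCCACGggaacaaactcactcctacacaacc
The ER stress response element, searched on both strands as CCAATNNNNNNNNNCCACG, was found in the Syvn1 window as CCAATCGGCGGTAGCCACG, starting 44 bases before the gene start. It was found in 37 of 32851 windows of this length, or 0.113%. The other 7 members with a promoter in the table, Wfs1 among them, held no such match, and Itpr1 and Atp2a2 were not in the table. The CCAAT motif on its own occurred in 33.8% of all windows and the CCACG motif in 28.3%, and both are part of every full element. The Wfs1 window held 1 CCAAT on the reverse strand and no CCACG. These matches describe letters and not binding. Only exact matches within 250 bases were sought, so variants of the element and sites farther away were not covered. The lack of a match in the Wfs1 window does not show whether Wfs1 responds to ER stress.

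Most of the measured transcripts differed little between groups. In the limma fit over all arrays 2 of 9 members passed an adjusted p of 0.05 in KO against WT, both higher (Orai1 and Atp1b1), where 2.94% of all probesets passed and 1.37% were higher. None passed in HZ against WT, where 0.00281% of probesets passed, and 1 of 9 had an unadjusted p under 0.05. None passed in KO against HZ, where 1.44% of all probesets passed the adjusted threshold. At an unadjusted p under 0.05 there were 5 of 9. The share of all probesets at that unadjusted p was not counted, so such counts, here and below, have no background. With VPA 2 of 9 passed, both lower (Itpr3 and Atp1b1), against 8.61% of probesets, of which those lower made up 4.60% of all. The median difference of the 9 members was 0.039 on the log2 scale in KO against WT, beside 0.007 over all probesets. It was -0.018 with VPA, beside -0.016 over all probesets. KO against WT and KO against HZ share the KO mice.

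Within a single treatment or genotype the members passed 4 times, for Atp2a2 and Itpr3, as described with these genes. No member passed in KO against WT, where 0.790% of probesets passed in saline and 0.405% with VPA. Nor did one pass with VPA in HZ against WT (background 0.00281%) or KO against HZ (0.298%), or for VPA in WT (0.0703%) or in KO (0.0112%). The VPA effect differed between KO and WT, and between HZ and WT, for 0 members and 0% of all probesets. At an unadjusted p under 0.05 it differed for 1 member in each case, Itpr2 and Atp2a2.

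**Figure D1:**
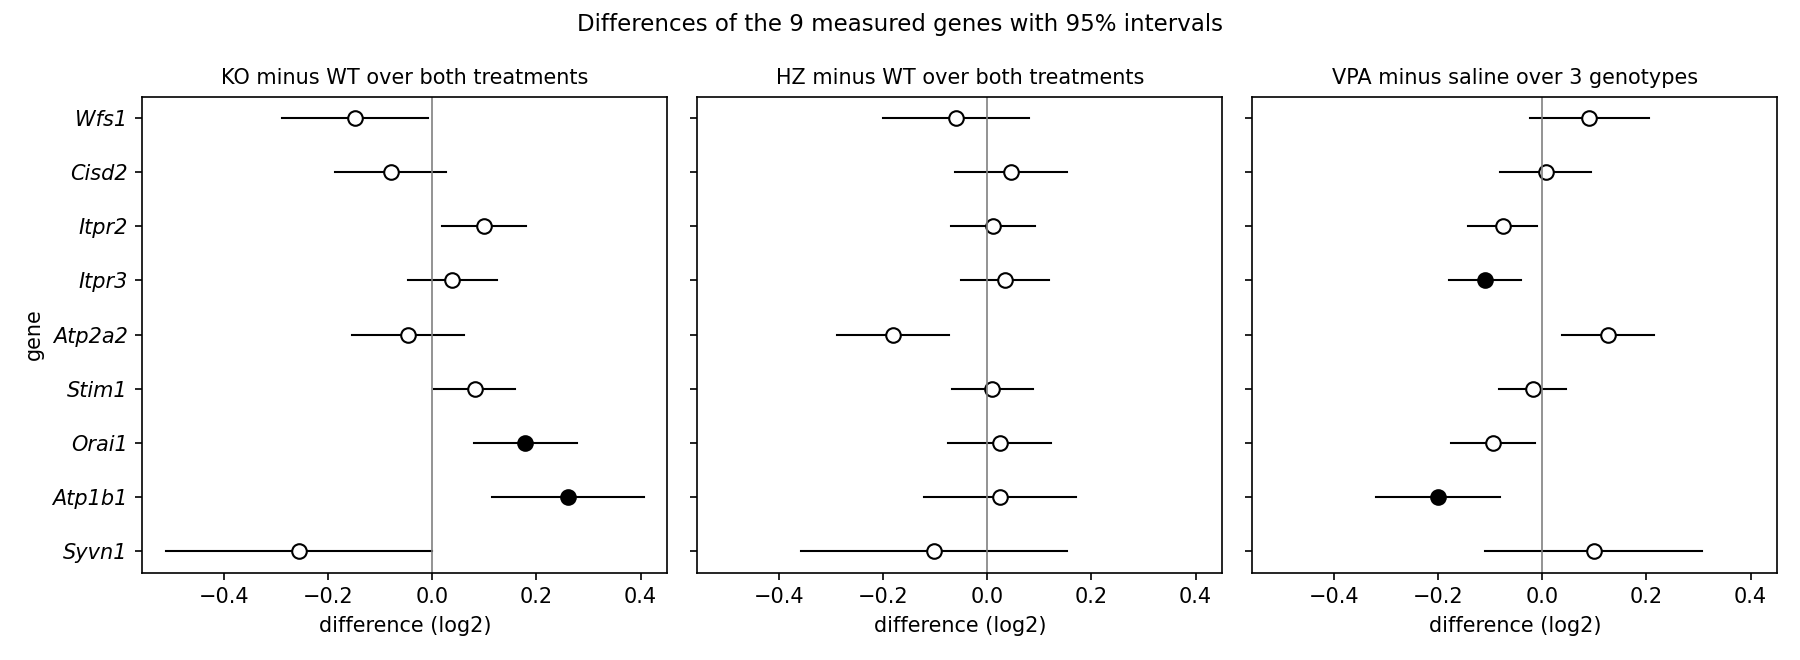
Differences of the 9 measured genes on the log2 scale (x axis) for KO against WT, HZ against WT and VPA against saline, with 95% intervals of the limma fit as lines. Filled points passed an adjusted p of 0.05: Orai1 (0.18) and Atp1b1 (0.26) in KO mice, Itpr3 (-0.11) and Atp1b1 (-0.20) with VPA.

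Wfs1 itself (probeset 10529605) was only slightly lower in KO livers. In saline its log2 value ran from 8.24 to 8.60 in WT mice (median 8.44), from 8.19 to 8.53 in HZ mice (median 8.28) and from 8.13 to 8.42 in KO mice (median 8.28). In VPA mice it ran from 7.94 to 8.98 in WT (median 8.50), from 8.10 to 8.84 in HZ (median 8.46) and from 8.01 to 8.67 in KO (median 8.28). The ranges overlapped in every pair of groups, and the spread was wider with VPA in each genotype. The SD was 0.098 (WT), 0.11 (HZ) and 0.12 (KO) with saline, and 0.31, 0.25 and 0.21 in the same order with VPA. From the highest mean to the lowest, the groups were HZ VPA, WT VPA, WT saline, KO VPA, HZ saline and KO saline, and each gap between neighbours was smaller than the larger SD of the pair.

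KO mice differed from WT mice in Wfs1 by -0.15 (SE 0.069, 95% interval -0.29 to -0.0088), and 14 of the 16 animals fell under the WT average for the same treatment. This did not pass the adjustment (limma adjusted p = 0.32). Within saline all 8 KO mice lay below the WT mean, by -0.16 on average (exact permutation p = 0.0154, 0.138 after adjustment over 9 pairs). The probeset summarises probes over the whole gene, of which the mutation removed a part, so its level is a weak check of the genotype labels. VPA mice differed from saline mice by 0.09 (SE 0.057, interval -0.024 to 0.20, limma adjusted p = 0.308), and the VPA effect did not differ detectably among genotypes (F = 0.475, limma adjusted p = 0.915). HZ mice with VPA had the largest estimate, 0.17 (SE 0.098, limma adjusted p = 0.251).

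**Figure D2:**
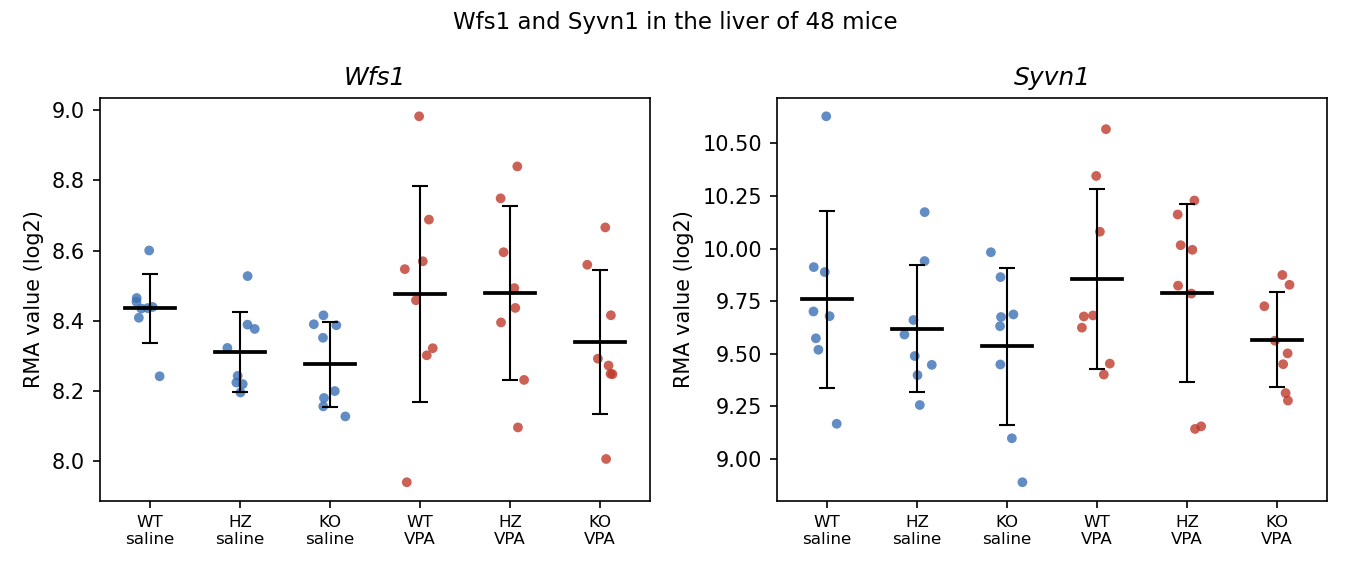
RMA values of Wfs1 and Syvn1 on the log2 scale (y axis) for each mouse in the 6 groups, with group means (bars) and SD (error bars, n = 8), saline in blue and VPA in red. The ranges of all groups overlap, and the Wfs1 SD is 0.098 to 0.12 in saline and 0.21 to 0.31 with VPA.

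Syvn1 (probeset 10460706) was the most variable member. Its lowest, median and highest values in saline were 9.17, 9.69 and 10.63 in WT mice, 9.26, 9.54 and 10.17 in HZ mice, and 8.89, 9.65 and 9.98 in KO mice. With VPA they were 9.40, 9.68 and 10.57 in WT, 9.14, 9.91 and 10.23 in HZ, and 9.28, 9.53 and 9.87 in KO. No group stood apart. The KO difference was -0.26 (SE 0.13, 95% interval -0.51 to -0.0004, 13 of 16 mice below WT, limma adjusted p = 0.366), and the VPA difference was 0.10 (SE 0.10, limma adjusted p = 0.571).

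Across mice, Wfs1 and Syvn1 varied together. After subtraction of the group means, Pearson's r over 48 mice was 0.71 and Spearman's rho 0.76. The permutation p was 1e-05 for both, the smallest that 100000 resamples can give, and 9e-05 after adjustment over 9 relations. Without the 2 mice farthest from the median of Wfs1 (WT VPA replicates 3 and 8), r was 0.75. It was 0.82 over the 24 saline mice and 0.74 over the 24 VPA mice when these were taken separately. In the single groups r was 0.92 in WT saline, 0.82 in HZ saline, 0.78 in KO saline, 0.70 in WT VPA, 0.92 in HZ VPA and 0.47 in KO VPA, with 8 mice each. The sign of r was thus positive in all 6 groups, and r was not tested within single groups.

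The relation was not particular to this pair. Of all probesets with 1 symbol, Syvn1 ranked 52nd in likeness to Wfs1, and the 5 most like Wfs1 were Tfg (r = 0.81), Thtpa (0.80), Dnph1 (0.79), Lman2 (0.79) and Gorasp2 (0.78) over the same 48 mice. Tfg, Lman2 and Gorasp2 encode proteins of ER export and the Golgi. In the other direction, Wfs1 ranked 267th in likeness to Syvn1, and the probeset most like Syvn1 had r = 0.89. The largest shared pattern of all probesets, the first principal component of the deviations from group means, held 18.2% of their variance. It correlated with Wfs1 at 0.52 and with Syvn1 at 0.64, and r between Wfs1 and Syvn1 was 0.58 once it was removed, a step chosen after the data were seen. All values of a mouse come from 1 array and 1 RNA preparation.

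**Figure D3:**
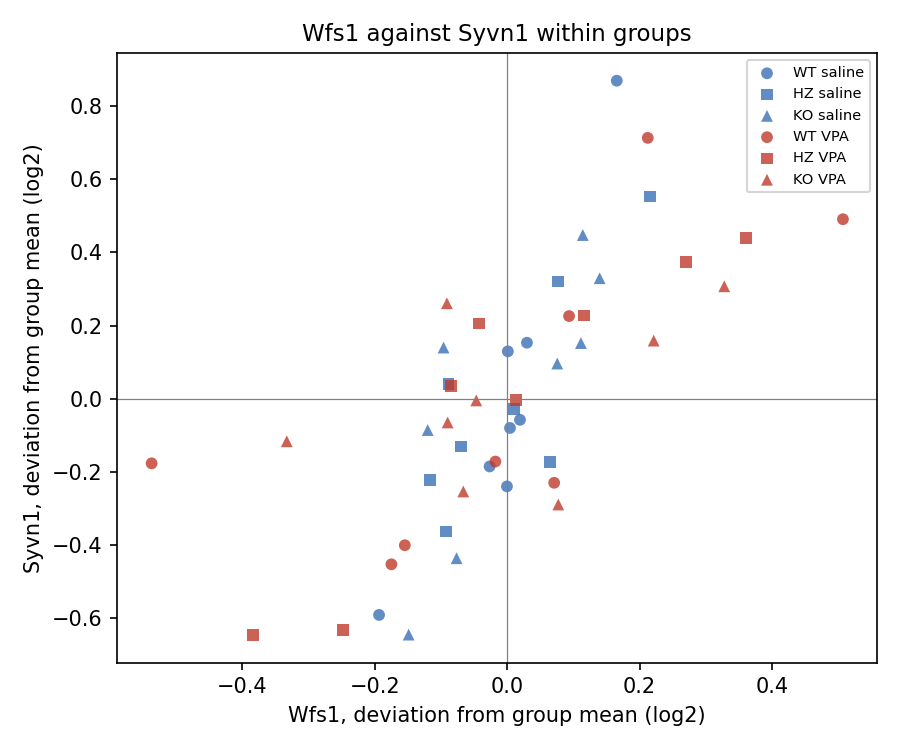
Deviation of Wfs1 (x axis) and of Syvn1 (y axis) from the mean of the mouse's group, both on the log2 scale, with 1 point per mouse, colour for treatment and shape for genotype. The points of all groups tend to rise from lower left to upper right, with r = 0.71 over 48 mice. The rise is weakest in KO VPA (r = 0.47, 8 mice).

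Of the other 8 relations with Wfs1, none passed the adjustment by r. Atp1b1 had r = -0.34 (permutation p = 0.0174, adjusted 0.0523) and rho = -0.42 (adjusted permutation p = 0.0153). Orai1 had r = 0.31 (adjusted permutation p = 0.0716). Ppard, a lipid-sensing nuclear receptor set against Wfs1 in the study, had r = 0.35 (adjusted permutation p = 0.0523), which was 0.23 without the 2 farthest mice, so that this value rests in part on them. For Cisd2, Itpr2, Itpr3, Atp2a2 and Stim1 r lay between -0.18 and 0.16.

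Among stress genes the relation to Wfs1 was uneven. Of 22 genes of the unfolded protein response, 16 correlated positively with Wfs1 (72.7%, beside 60.5% of all probesets with 1 symbol), and the median r was 0.15 beside 0.063. Xbp1, a transcription factor of this response, had r = 0.64 and Atf6b, a relative of Atf6, had 0.63, while the ER chaperone Hsp90b1 had -0.48. For 19 partners of Syvn1 in ER-associated degradation the median r was 0.14, and for 45 further genes of calcium handling it was -0.0039.

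Cisd2 (probeset 10502329) showed no difference that passed. Its group medians lay between 8.92 and 9.11, and single mice between 8.60 and 9.31. KO mice differed from WT mice by -0.080 (SE 0.053, limma adjusted p = 0.571) and from HZ mice by -0.13 (SE 0.053, limma adjusted p = 0.365). VPA mice differed from saline mice by 0.0067 (95% interval -0.080 to 0.094).

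The calcium entry channel Orai1 (probeset 10525464) was higher in KO livers. Its log2 value in saline ran from 7.57 to 7.88 in WT mice (median 7.72), from 7.61 to 7.98 in HZ mice (median 7.72) and from 7.67 to 8.17 in KO mice (median 8.04). In VPA mice it ran from 7.49 to 7.85 in WT (median 7.65), from 7.49 to 7.81 in HZ (median 7.71) and from 7.58 to 7.99 in KO (median 7.79). The groups overlapped, but 5 of 8 KO saline mice lay above every WT saline mouse. Over both treatments KO exceeded WT by 0.18 (SE 0.049, 1.13-fold, limma adjusted p = 0.0316), with 13 of 16 KO mice above the WT mean of their treatment. The difference was 0.25 in saline (exact permutation p = 0.00855, 0.0769 after adjustment over 9 pairs) and 0.11 with VPA (exact permutation p = 0.126, adjusted 0.285), and the VPA effect did not differ detectably between KO and WT (-0.14, SE 0.099). HZ mice were at the WT level within the error (0.024, 95% interval -0.075 to 0.12).

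The Orai1 call lay near the threshold. It was lost when any 1 of 10 mice was left out, namely WT saline replicates 2, 3 and 8, KO saline replicates 3, 4 and 5, WT VPA replicate 6 and KO VPA replicates 4, 5 and 8, with differences of 0.16 to 0.17 and adjusted p up to 0.0677. It was also lost with each array centred on its median (0.17, limma adjusted p = 0.063) and in a fit of the groups compared alone (limma adjusted p = 0.0754).

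The sodium pump subunit Atp1b1 (probeset 10359689) was higher in KO mice and lower with VPA. Its lowest, median and highest values in saline were 10.95, 11.22 and 11.37 in WT mice, 10.82, 11.19 and 11.46 in HZ mice, and 11.09, 11.44 and 11.70 in KO mice. With VPA they were 10.55, 11.01 and 11.22 in WT, 10.69, 10.95 and 11.46 in HZ, and 10.98, 11.27 and 11.41 in KO. KO saline was the highest group, and its mean exceeded that of the next, KO VPA, by 0.24, more than the larger SD of 0.20. The other neighbours in the order (WT saline, HZ saline, HZ VPA and WT VPA) differed by less than their SD.

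KO exceeded WT in Atp1b1 by 0.26 (SE 0.072, 1.20-fold, limma adjusted p = 0.0343), in 15 of 16 KO mice. The difference was 0.27 in saline and 0.25 with VPA (exact permutation p = 0.0124 and 0.0131, both 0.0392 after adjustment over 9 pairs). VPA mice were lower than saline mice by -0.20 (SE 0.059, 1.15-fold lower, limma adjusted p = 0.0278), in 21 of 24 mice. Per genotype the VPA differences were -0.23 (WT), -0.13 (HZ) and -0.24 (KO), and the effect did not differ detectably among genotypes (F = 0.379, limma adjusted p = 0.928). The KO call was lost without WT saline replicate 4 or 7, KO saline replicate 2, 6 or 8, WT VPA replicate 3 or 5, and without KO VPA replicates 3, 4 or 5. These fits gave differences from 0.23 to 0.25 and adjusted p up to 0.0668. The VPA call held without any single mouse. With arrays centred on their medians neither Atp1b1 call passed (limma adjusted p = 0.0557 for KO and 0.0678 for VPA), nor with array weights (0.0816 and 0.0502).

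**Figure D4:**
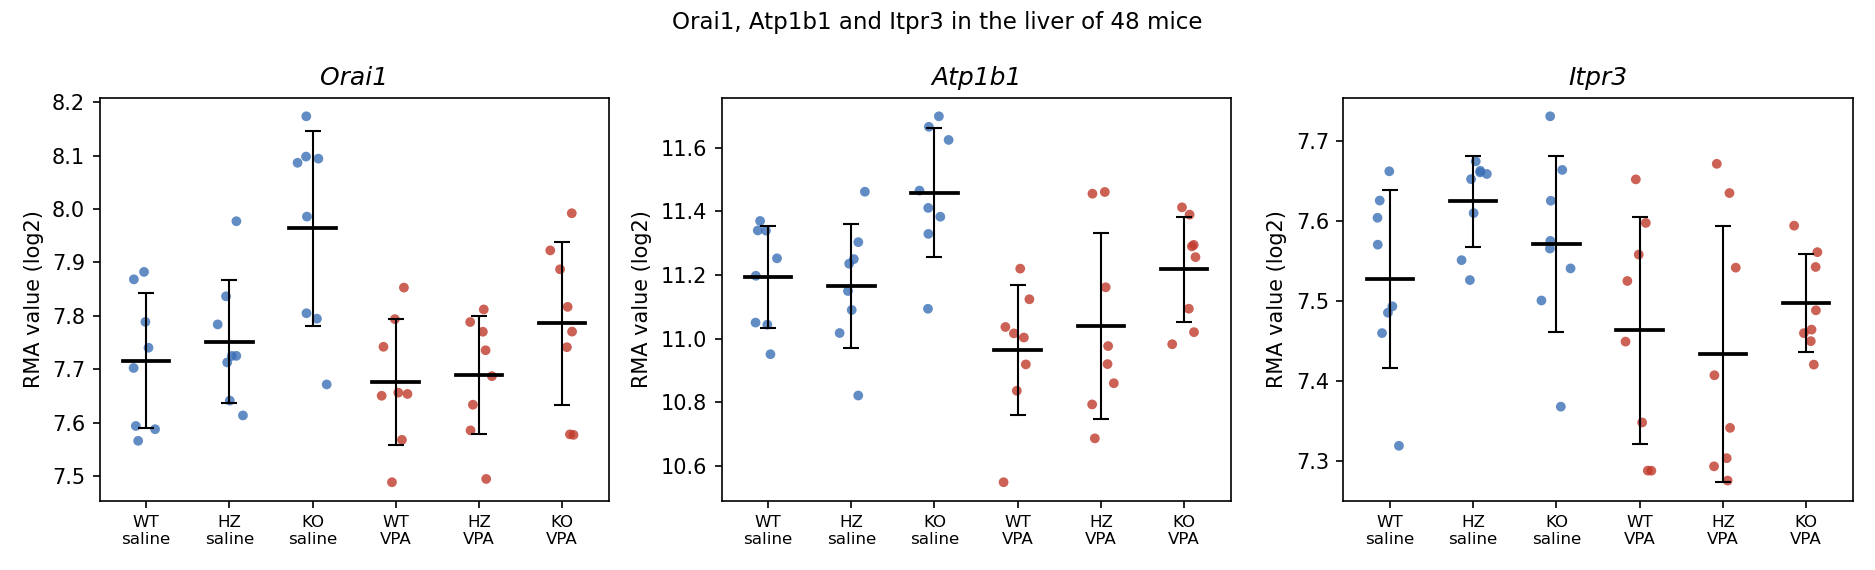
RMA values of Orai1, Atp1b1 and Itpr3 on the log2 scale (y axis) for each mouse in the 6 groups, with group means (bars) and SD (error bars, n = 8), saline in blue and VPA in red. KO saline mice have the highest means of Orai1 (7.96) and Atp1b1 (11.46), and Itpr3 means lie between 7.43 and 7.62.

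Of the calcium release channels, Itpr3 (probeset 10443131), which in liver is mainly a channel of bile duct cells, was lower with VPA. Its saline values ran from 7.32 to 7.66 in WT (median 7.53), from 7.53 to 7.68 in HZ (median 7.66) and from 7.37 to 7.73 in KO (median 7.57). With VPA they ran from 7.29 to 7.65 in WT (median 7.49), from 7.28 to 7.67 in HZ (median 7.37) and from 7.42 to 7.59 in KO (median 7.48). The shift was small and all groups overlapped. VPA mice differed by -0.11 (SE 0.034, 1.08-fold lower, limma adjusted p = 0.0366), in 18 of 24 mice.

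By genotype, the Itpr3 differences were -0.064 (WT), -0.19 (HZ) and -0.074 (KO). That in HZ passed in the fit (limma adjusted p = 0.0323), where 10.5% of all probesets passed and 5.76% were lower. It did not pass the exact permutation test after adjustment over 9 pairs (p = 0.0104, adjusted 0.0937). A difference among genotypes was not detectable (F = 1.41, limma adjusted p = 0.801). The overall call was lost without any 1 of 15 mice: WT saline replicates 1, 7 and 8, KO saline replicates 3, 4 and 8, WT VPA replicates 1, 2 and 4, HZ VPA replicates 1, 3, 4 and 6, and KO VPA replicates 2 and 3, with differences of -0.11 to -0.10 and adjusted p up to 0.0596. It was lost too with arrays centred on their medians (-0.084, limma adjusted p = 0.102). The Itpr3 call in HZ was lost under that centring (limma adjusted p = 0.0753), in a fit of the groups compared alone (0.0573) and without HZ saline replicate 1, 5, 6 or 7 or HZ VPA replicate 1, 3, 4, 6 or 8, with adjusted p up to 0.084.

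Itpr2 (probeset 10549282), a main inositol trisphosphate receptor of hepatocytes, had medians of 9.48, 9.50 and 9.64 in WT, HZ and KO saline mice, against 9.43, 9.44 and 9.42 with VPA. In saline 5 of 8 KO mice lay above every WT mouse, and the difference was 0.19 (exact permutation p = 0.0169, adjusted 0.111). Over both treatments it was 0.099 (SE 0.040, limma adjusted p = 0.215). Stim1 (probeset 10555681) gave a like picture, whose medians were 8.63, 8.58 and 8.69 in WT, HZ and KO saline mice and of 8.62 in all VPA genotypes. In saline 7 of 8 KO mice lay above every WT mouse, by 0.14 on average (exact permutation p = 0.0165, adjusted 0.148), and over both treatments the difference was 0.082 (SE 0.039, limma adjusted p = 0.334).

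Atp2a2 (probeset 10533483), which encodes the SERCA2 pump, was lower in HZ saline mice than in any other group. Its saline values ran from 11.23 to 11.74 in WT (median 11.43), from 10.82 to 11.28 in HZ (median 11.07) and from 11.22 to 11.69 in KO (median 11.41). With VPA they ran from 11.15 to 11.83 in WT (median 11.46), from 11.33 to 11.64 in HZ (median 11.48) and from 11.28 to 11.56 in KO (median 11.36). All 8 HZ VPA mice lay above all 8 HZ saline mice, a separation seen in 1.70% of all probesets for that pair. In the order of the means the gap between HZ saline and the next group, KO VPA, was 0.29, above the larger SD of 0.14, and all other neighbours differed by less than their SD.

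In saline HZ mice differed from WT mice in Atp2a2 by -0.33 (SE 0.075, limma adjusted p = 0.0342), a call made for 0.304% of probesets (0.180% lower). KO mice exceeded HZ mice by 0.36 (SE 0.075, limma adjusted p = 0.00424), a call made for 1.39% (0.703% higher). In HZ mice VPA values exceeded saline values by 0.38 (SE 0.075, 1.30-fold, limma adjusted p = 0.000974), where the background was 10.5% (4.72% higher). By exact permutation the p-values were 0.000777, 0.000466 and 0.000155, or 0.00233, 0.0021 and 0.0014 after adjustment over 9 pairs, and the last is the smallest that 12870 splits allow. These 3 comparisons share the HZ saline mice. KO and WT saline mice differed by 0.033 (95% interval -0.12 to 0.18), so the level did not follow the number of mutant alleles.

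By genotype, the VPA effects on Atp2a2 were 0.079 (WT), 0.38 (HZ) and -0.077 (KO). The effect in KO differed from that in HZ by -0.46 (SE 0.11, limma adjusted p = 0.0473), a call made for 0.214% of probesets (0.104% in this direction), and the effect in HZ differed from that in WT by 0.30 (SE 0.11, limma adjusted p = 0.556). The test over all 3 genotypes did not pass (F = 9.41, unadjusted p = 0.00038, limma adjusted p = 0.137), where 0.0816% of probesets passed and no member did. Over both treatments HZ differed from WT by -0.18 (SE 0.053, limma adjusted p = 0.548), and over the 3 genotypes VPA differed from saline by 0.13 (SE 0.044, limma adjusted p = 0.0579).

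**Figure D5:**
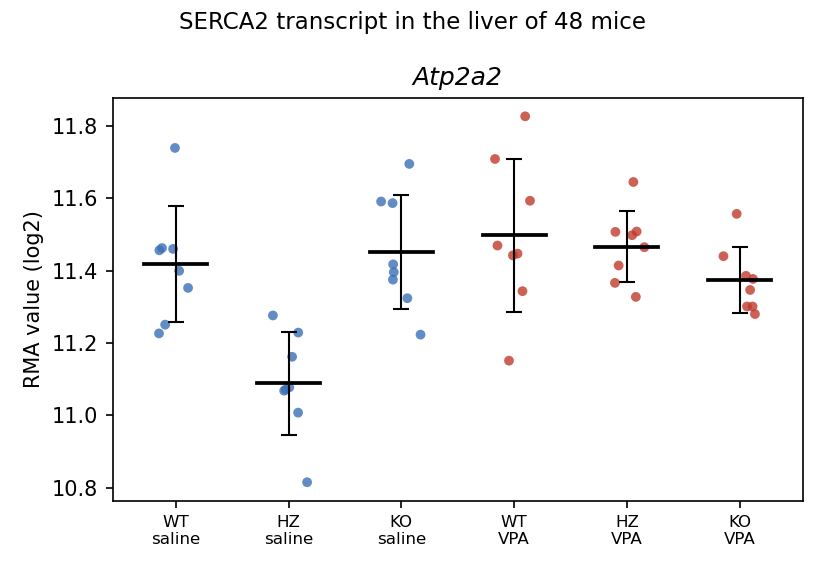
RMA values of Atp2a2 on the log2 scale (y axis) for each mouse in the 6 groups, with group means (bars) and SD (error bars, n = 8), saline in blue and VPA in red. HZ saline mice lie between 10.82 and 11.28 and all HZ VPA mice lie above them, between 11.33 and 11.64.

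The differences of KO saline and HZ VPA mice from HZ saline mice held without any single mouse (0.32 to 0.40 and 0.34 to 0.40). That between HZ and WT in saline was lost without WT saline replicate 4, 5, 6, 7 or 8 or HZ saline replicate 1, 3, 4, 5 or 8, with differences of -0.33 to -0.28 and adjusted p up to 0.0955. It was lost as well in a fit of the groups compared alone (limma adjusted p = 0.105). The difference between the VPA effects of KO and HZ was lost in 33 of 48 such fits (-0.47 to -0.42, adjusted p up to 0.0964) and with the replicate number as a block (limma adjusted p = 0.0579).

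The median summed levels of endothelial, stellate and Kupffer cell markers were lowest in the same group as Atp2a2, HZ saline. That of bile duct markers was lowest in KO saline (median 9.91, against 10.06 in HZ saline). The summed level of 8 sinusoidal endothelial markers, as log2, had a median of 12.75 in HZ saline mice (single mice 12.45 to 12.91). The medians of the other groups were 13.06 to 13.15. For 8 stellate cell markers these values were 12.88 (12.80 to 13.11) and 13.15 to 13.24. For 10 Kupffer cell markers they were 12.18 (11.79 to 12.81) and 12.55 to 12.96. Single mice overlapped, with endothelial levels from 12.74 and stellate levels from 12.97 in WT VPA mice. The lowest Kupffer levels were in WT VPA (11.68) and WT saline (11.73) mice. No marker of these lists had a mean under 5. The summed level of 8 hepatocyte markers had group medians of 17.03 to 17.06, with single mice from 16.98 to 17.11. These markers had means of 13.5 to 14.4, near the highest value of any probeset, 14.8. By single genes, 0 of 10 Kupffer and 0 of 8 endothelial markers passed in HZ against WT in saline (limma, 6 and 7 at an unadjusted p under 0.05). Of 8 stellate markers 1 fell, where 0.180% of all probesets did. In KO against HZ in saline 0 Kupffer, 5 endothelial and 1 stellate markers were higher, where 0.703% of all probesets were. With VPA in HZ mice 7 Kupffer, 6 endothelial and 4 stellate markers rose, and of 8 hepatocyte markers Fgb (0.15), where 4.72% of all probesets did. Over the 3 genotypes the hepatocyte marker Tat was lower with VPA (-0.18, limma adjusted p = 0.0396), where 4.60% of all probesets were lower. The part of these cells in the Atp2a2 differences was not tested, and in whole liver fewer cells of a type and less RNA per cell cannot be told apart.

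Of the same lists, none of the Kupffer, endothelial or stellate markers passed in KO against WT, while with VPA 5 of 10 Kupffer markers rose, 3 of 8 endothelial markers rose, and 2 stellate markers rose and 1 fell, beside 4.01% of all probesets higher and 4.60% lower. These calls came with larger differences in HZ mice. The median VPA difference of the Kupffer markers was 0.69 in HZ, against 0.15 (WT) and 0.14 (KO), and that of the endothelial markers 0.36, against 0.053 (WT) and -0.015 (KO). No marker of these lists passed for VPA in WT or KO mice or in the test of genotype by VPA. Of 6 measured bile duct markers Sox9 and Cdh1 fell in KO mice, where 1.57% of all probesets did. With VPA Sox9 rose and Epcam fell (log2 difference -0.12). Their summed level had medians from 9.91 in KO saline to 10.32 in HZ VPA, and 1 marker had a mean under 5. Of 3 measured erythroid genes Alas2 fell in KO mice, and their summed level, which the brightest probeset, that of Alas2, largely sets, had medians of 9.71 in KO saline against 10.99 in WT saline, and 10.38 in KO VPA against 10.84 in WT VPA. With VPA Slc4a1 fell. The summed levels of skeletal muscle and pancreas markers had group medians of 9.59 to 9.75 and 9.31 to 9.40. Single mice reached 10.45 for muscle in HZ VPA and 10.14 in KO saline, and 9.62 for pancreas in KO saline. Of 5 measured pancreas markers Cela1 fell in KO mice. The part of all these cell types in the values of Orai1, Atp1b1 and Itpr3 was not tested.

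Circadian genes also differed between groups. An index was taken as the mean of standardised values of 12 clock genes, positive for Arntl, Clock and Nfil3 and negative for 9 genes such as Nr1d1, Dbp and Per3. In saline it averaged -0.20 (WT), -1.10 (HZ) and -0.64 (KO), and 1.12, 0.95 and -0.13 with VPA. Within groups it correlated with no member after adjustment over 9 relations (permutation test, r from -0.27 to 0.16). With the index as a covariate in limma, Orai1 in KO was 0.18 (adjusted p = 0.323), Atp1b1 in KO 0.16 (adjusted p = 0.677), Atp1b1 with VPA -0.044 (adjusted p = 0.947) and Itpr3 with VPA -0.0045 (adjusted p = 0.99). Of the Atp2a2 differences, that of KO from HZ in saline still passed, while VPA in HZ was 0.25 (adjusted p = 0.657), HZ against WT in saline -0.27 (adjusted p = 0.608) and the difference of the VPA effects of KO and HZ -0.36 (adjusted p = 0.577). Itpr3 with VPA in HZ was -0.024 (adjusted p = 0.961). The index is itself fixed in large part by group, and its part in these results was not tested.

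Beyond the members, 45 of 50 listed genes of cellular calcium handling were measured. In KO against WT, 2 rose and 1 fell, where 1.37% of all probesets rose and 1.57% fell, with a median difference of -0.0021. Vdac2, a calcium-permeable channel of the outer mitochondrial membrane, rose by 0.19 (SE 0.044, limma adjusted p = 0.00594), and Hspa9, the mitochondrial chaperone that couples it to the ER receptor, rose by 0.15 (SE 0.041). Ahcyl2, a relative of the receptor-binding protein IRBIT, fell by 0.34 (SE 0.083, limma adjusted p = 0.0119).

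With VPA 2 of these 45 genes rose and 2 fell, a share near the 8.61% of all probesets, with a median of 0.018. Mcu, the pore of the mitochondrial calcium uniporter, rose by 0.46 (SE 0.064, 1.38-fold, limma adjusted p = 2.98e-06) in 23 of 24 mice, the largest of these 4 differences. By genotype it was 0.41 (WT), 0.59 (HZ) and 0.38 (KO). Calu, a calcium-binding protein of the ER lumen, rose by 0.20 (0.40 in HZ, 0.041 in WT and 0.15 in KO), and the store sensor Stim2, the relative of Stim1, fell by 0.19 (SE 0.048, limma adjusted p = 0.00894). For Stim2 the genotypes gave -0.039 (WT), -0.31 (HZ) and -0.23 (KO). Saraf, a brake on store-operated entry, passed for VPA in HZ mice (0.32, limma adjusted p = 0.0344), where 10.5% of all probesets passed. That background was 0.0703% in WT and 0.0112% in KO. The Saraf difference was 0.15 in WT and -0.0018 in KO. Its effects in KO and HZ did not differ past the adjustment (limma adjusted p = 0.389). Over the 3 genotypes Ncs1, a calcium sensor, fell by 0.13 with VPA. Between KO and HZ, Atp2b2, a plasma membrane calcium pump, was higher by 0.47 (SE 0.12, limma adjusted p = 0.0339) and Vdac2 by 0.17. None of the 45 passed in HZ against WT (limma, 2 with an unadjusted p under 0.05) or in the test of genotype by VPA.

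Of 6 measured relatives of the sodium pump and of CISD2, none passed in a genotype comparison. With VPA the pump regulator Fxyd5 rose by 0.24, while Fxyd2 fell by 0.16 and the beta 2 subunit Atp1b2 fell by 0.12, 3 of 6 genes beside 8.61% of all probesets. The Fxyd5 difference was 0.52 in HZ mice, 0.17 in WT and 0.038 in KO, and the effects of KO and HZ did not differ past the adjustment (-0.48, SE 0.16, limma adjusted p = 0.198).

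In ER-associated degradation 19 of 20 listed partners of Syvn1 were measured. Faf2, which recruits the extraction machinery, fell by 0.19 in KO mice (limma adjusted p = 0.00415) and rose by 0.11 with VPA. Ube2j1, a ubiquitin-conjugating enzyme of the ER, fell by 0.17 in KO mice. With VPA Ube2g2, another such enzyme, rose by 0.19 and Herpud1, a stress-induced part of the ligase complex, fell by 0.46 (SE 0.082, limma adjusted p = 0.000179) in 22 of 24 mice. The Ube2g2 difference was 0.47 in HZ mice (limma adjusted p = 0.000167), where 10.5% of all probesets passed, 0.11 in WT and 0.0056 in KO. The effects of KO and HZ did not differ past the adjustment (-0.46, SE 0.11, limma adjusted p = 0.0693). In saline Ube2g2 was higher in KO than in HZ mice by 0.35 (limma adjusted p = 0.0108), where 0.703% of all probesets were. This comparison and VPA in HZ share the HZ saline mice. The VPA difference of Faf2 was 0.24 in HZ, 0.015 in WT and 0.077 in KO, while Herpud1 gave -0.50, -0.52 and -0.37 in the same order. The list thus had 2 of 19 lower in KO mice, beside 1.57% of all probesets, and 2 higher and 1 lower with VPA, beside 4.01% and 4.60%. Its median difference was -0.058 in KO and 0.029 with VPA.

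All 22 listed genes of the unfolded protein response were measured, and 2 fell in KO mice, where 1.57% of all probesets fell. Sdf2l1, a cofactor of the chaperone BiP, fell by 0.64 (SE 0.17, limma adjusted p = 0.0215) in 16 of 16 mice, and the disulfide isomerase Pdia4 fell by 0.25 (SE 0.073, limma adjusted p = 0.0436). The median of the list was -0.14, beside 0.007 over all probesets, and 8 of 22 had an unadjusted p under 0.05, a count with no background over all probesets. With VPA 3 rose, where 4.01% of all probesets did, namely Hspa5, which encodes BiP, by 0.22, the secreted stress protein Manf by 0.25 and Atf6b by 0.15, and the median was 0.082. In HZ mice Hspa5 and Manf gave 0.34 and 0.43, against 0.17 and 0.056 in WT and 0.16 and 0.26 in KO. The stress sensor Eif2ak3 passed for VPA in HZ mice (0.34, limma adjusted p = 0.0136), where 10.5% of all probesets passed, against 0.0703% in WT and 0.0112% in KO. Its difference was -0.010 in WT and -0.050 in KO, and the effects of KO and HZ did not differ past the adjustment (limma adjusted p = 0.201). None of the 22 passed in the test of genotype by VPA.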

How the data were processed

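Liver RNA of 48 mice was hybridised to 1 array each. Total RNA was extracted with Trizol (integrity number 7 to 9) and 300 ng were labelled with biotin. The authors deposited log2 values computed by RMA. The submitters' processing notes give Expression Console 1.1.2800.28061 of Affymetrix. Thus background correction, quantile normalisation and the summary over probes preceded all steps here, and RMA tends to shrink differences of dim probesets. Values ran from 2.12 to 14.8 and array medians from 6.90 to 7.03. Arrays correlated at 0.971 to 0.994, and none was left out. The number of arrays limits the precision.

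Genotype and treatment came from the sample labels, and the replicates were separate mice. Symbols came from the platform annotation, in which 21789 probesets had 1 symbol, 1621 several and 12146 none. For a gene with several probesets, that with the highest mean was used. Levels are not compared between probesets. The 10 members, the gene lists, the cell type markers and the clock genes were chosen with earlier results of these data known. Genes are named by rule: all members, up to 4 list genes that passed per list and comparison, as examples, and the 5 probesets most like Wfs1, with Ppard from the planned correlations. Xbp1, Hsp90b1, Saraf and Eif2ak3 were named after their values were seen.

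Group means were fitted with limma 3.58.1 (lmFit, eBayes) in R 4.3.3 over 35556 probesets with 42 residual degrees of freedom and Benjamini-Hochberg adjustment of two-sided p-values. Main effects are the mean over both treatments or over 3 genotypes. Each pair of groups was also given an exact permutation test, two-sided, over 12870 splits, adjusted over the 9 pairs of a gene. Correlations used 100000 permutations, and since Itpr1 was not analysed here the family held 9 relations. The fits were also run on simulated data with independent normal noise for each probeset and array. That setting lacks the shared variation across probesets and arrays seen here, so it does not give the error rate under it. Alternatives were array weights, median centring, fewer probesets or arrays, a filter on dim probesets, a replicate block, the clock index and leaving out each mouse. Plots were made in Python 3.11.15 with matplotlib 3.10.9.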

Additional observations from a re-analysis of the deposited data

Results flagged for a closer look

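Of 54 sets of 8 mice (9 genes in 6 groups), 3 held a mouse far from the others, where chance gives about 1 in 20. WT saline replicate 7 had the highest Atp2a2 of its group (11.74) and the lowest Stim1 (8.41). Without it, Atp2a2 in HZ against WT in saline was -0.28 (limma adjusted p = 0.092) in place of -0.33, and its VPA difference over 3 genotypes was 0.14 (limma adjusted p = 0.0311). KO VPA replicate 2 had the highest Stim1 of its group (8.74).

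The effect of VPA on Atp2a2 differed between KO and HZ mice by -0.46 (SE 0.11, limma adjusted p = 0.0473), while the effects in WT and HZ did not differ past the adjustment. The call was lost with the replicate number as a block (limma adjusted p = 0.0579) and in 33 of 48 fits without 1 mouse, and the test over all 3 genotypes did not pass (limma adjusted p = 0.137).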

How the results depend on the processing

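With array weights, 1 member in place of 2 passed in KO against WT, 1 in place of 0 in KO against HZ (Orai1) and 1 in place of 0 in the test of genotype by VPA. With VPA 3 in place of 2 passed, since Orai1 (limma adjusted p = 0.0468) and Atp2a2 (0.0411) newly passed and Atp1b1 did not. With each array centred on its median, 0 passed in KO against WT and 1 in place of 2 with VPA. That 1 was Atp2a2 (0.15, limma adjusted p = 0.0235), while Itpr3 and Atp1b1 no longer passed. With only the arrays of the groups compared, 1 passed in KO against WT and 2 in place of 4 within single treatments or genotypes. This setting gives no value for VPA over 3 genotypes or for genotype by VPA, where all arrays belong. With the clock index as a covariate, 0 passed in KO against WT, 0 with VPA and 1 of 4 within single treatments or genotypes. With values pooled over the groups, 3 correlations with Wfs1 passed in place of 1 (Syvn1, Atp1b1 and Ppard), and r of Itpr3 turned to -0.055. The cause was not tested for any of these.

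Of the single-gene values and correlations under settings other than leaving out each mouse in turn, 343 held their direction and their side of the threshold, 19 no longer passed, 7 newly passed and 10 changed sign. Differences that changed sign were small and passed in neither setting. With array weights Orai1 in HZ against WT was -0.0057, and with centring Stim1 with VPA was 0.0073. With the clock index, Cisd2 with VPA was -0.063, Itpr2 in HZ against WT -0.016, Itpr3 -0.029 in KO against WT, -0.0099 in HZ against WT and -0.019 in KO against HZ, Atp2a2 in KO against WT 0.0059 and Atp1b1 in HZ against WT -0.040.

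Leaving out each mouse in turn, the members passing numbered 0 to 2 in KO against WT, 0 in HZ against WT, 0 to 1 in KO against HZ, 1 to 3 with VPA, 0 for genotype by VPA and 2 to 7 within single treatments or genotypes. None passed in KO against WT without KO VPA replicate 4 or 5. Signs changed for Cisd2 with VPA (-0.0052 to 0.023), for Itpr2 (-0.0024 to 0.018), Stim1 (-0.003 to 0.028) and Atp1b1 (-0.0055 to 0.050) in HZ against WT and for Itpr3 in KO against HZ (-0.0061 to 0.022).

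Replicate numbers are not said to pair mice, and residuals of arrays with the same number correlated by over 0.1 in 53 of 120 pairs, by 0.055 on average. With the replicate number as a block the counts stayed at 2, 0, 0, 2 and 0 in the order above, and the difference of the Atp2a2 VPA effects of KO and HZ (-0.46) did not pass (limma adjusted p = 0.0579). With 8 mice a group, differences of the size seen for most members lie within the error.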
